A study of Oryza sativa with 16 samples.

Results

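The SAPK genes SAPK1 to SAPK10 encode the 10 SnRK2 protein kinases of rice (Oryza sativa), known as osmotic stress/ABA-activated protein kinases. They were taken by name from the gene-level count table of emerging panicles, where they are 10 of 55801 genes, and all 10 were among the 33698 tested, which had 10 or more counts over the libraries used. SAPK1 (LOC_Os03g27280), SAPK2 (LOC_Os07g42940) and SAPK3 (LOC_Os10g41490) form subclass II of the family. SAPK4 (LOC_Os01g64970), SAPK5 (LOC_Os04g59450), SAPK6 (LOC_Os02g34600) and SAPK7 (LOC_Os04g35240) form subclass I, and SAPK8 (LOC_Os03g55600), SAPK9 (LOC_Os12g39630) and SAPK10 (LOC_Os03g41460) form subclass III. They lie on 7 chromosomes, with 3 members on chromosome 3 and 2 on chromosome 4.

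The study compared DTY-IL, a drought-tolerant introgression line that carries segments of the donor N22 in the background of the drought-sensitive variety Swarna, with Swarna itself. The 4 groups were DTY-IL drought, DTY-IL control, Swarna drought and Swarna control. Drought groups received reproductive-stage drought stress (RDS), in which pots were kept at 75% of field capacity for 9 days and then at 50% for 3 days, and control groups were kept well watered. Whole panicles of both treatments were harvested on day 12, when heads were emerging from the flag-leaf sheath, from plants of 1 greenhouse experiment, and the 4 libraries of a group are independent biological replicates. DTY-IL is 1 line, so an effect of the introgressed segments cannot be told apart from another difference between this line and Swarna. The study set aside 1 Swarna control library as an outlier, and it was left out here, which gave 15 libraries, with 4 in each group but Swarna control, which had 3.

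SnRK2 kinases are the positive arm of abscisic acid (ABA) signalling, the pathway through which plants close stomata and switch on protective genes when water is short. Without ABA, clade A protein phosphatases (PP2Cs) hold the ABA-activated kinases of the family inactive. ABA bound to its receptors blocks the PP2Cs, and the released kinases phosphorylate bZIP transcription factors and ion channels. All members of the rice family respond to hyperosmotic stress, and those of subclass III are in addition strongly activated by ABA. Their activity is set by phosphorylation, which RNA levels do not measure.

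Total counts per library ranged from 24677520 to 31080042, and the reads of the SAPK genes made up 0.0476% to 0.128% of them. The panicle label was checked against 11 floral MADS genes, whose summed level was 1371 to 1763 CPM (counts scaled to library size with TMM factors) in DTY-IL drought, 1918 to 2391 in DTY-IL control, 1189 to 1562 in Swarna drought and 2225 to 2470 in Swarna control, with no marker at 0 in all libraries of any group. Of the floral markers, 8 of 11 were lower under RDS in DTY-IL and 9 of 11 in Swarna, beside 33.0% of all genes in DTY-IL and 44.3% in Swarna that passed in either direction. Of 6 photosynthesis genes, 3 were lower in DTY-IL and 6 in Swarna, and their summed level was 1022 to 9569 CPM in DTY-IL drought, 10462 to 30353 in DTY-IL control, 1595 to 3668 in Swarna drought and 17216 to 27637 in Swarna control. All 3 pollen MADS genes were lower under RDS in both genotypes. Of 8 tapetum and anther genes, 3 were lower in DTY-IL and 4 in Swarna. The part of these shifts in the SAPK results was not tested, and in whole panicles fewer cells of a type and less RNA per cell cannot be told apart. DTY-IL drought replicate 2 stood apart from its group. Its summed CPM of the 9 clade A PP2C genes was 411, against 1211 to 1218 in the other 3 libraries, and that of the 6 photosynthesis genes was 1022, against 4483 to 9569. The count of members passing in DTY-IL, the member calls that changed and the subclass III share are given with and without it. DTY-IL control replicate 3 also stood apart. Its summed CPM of the 8 tapetum and anther genes was 613, against 74.4 to 146 in the other DTY-IL controls. The member calls that changed without this control library are given below.

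Panicle RDS changed the RNA level of 6 of the 10 SAPK genes in each genotype. In DTY-IL, 5 genes rose (SAPK1, SAPK3, SAPK6, SAPK9 and SAPK10) and SAPK7 fell, beside 33.0% of all genes tested that passed the same threshold. In Swarna, 5 genes rose (SAPK1, SAPK4, SAPK6, SAPK9 and SAPK10) and SAPK7 fell, beside 44.3% of all genes. A gene passed when its p-value, from edgeR's quasi-likelihood test and adjusted over all 33698 genes after Benjamini and Hochberg, was at most 0.05; this value is called the edgeR adjusted p. With the added requirement of a change of 1 or more in either direction on the log2 scale, which defines the differentially expressed genes (DEGs), the count was 3 in DTY-IL (SAPK6, SAPK9 and SAPK10) and 5 in Swarna, beside 19.8% and 29.5% of all genes. The shares over all genes include genes with few reads, whereas no member had under 128 counts in any of the 15 libraries. Under edgeR's stricter filterByExpr filter on low counts, 11175 of 27172 genes passed in DTY-IL and 14561 of 27172 in Swarna. The median log2 fold change of the 10 members was 0.49 in DTY-IL and 0.80 in Swarna, against -0.03 and 0.00 over all genes tested. The contrasts were fitted together but share no libraries with each other, and 5 members passed in both genotypes in the same direction, 4 of them up (SAPK1, SAPK6, SAPK9 and SAPK10) and 1 down (SAPK7), beside 27.0% of all genes.

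**Figure D1:**
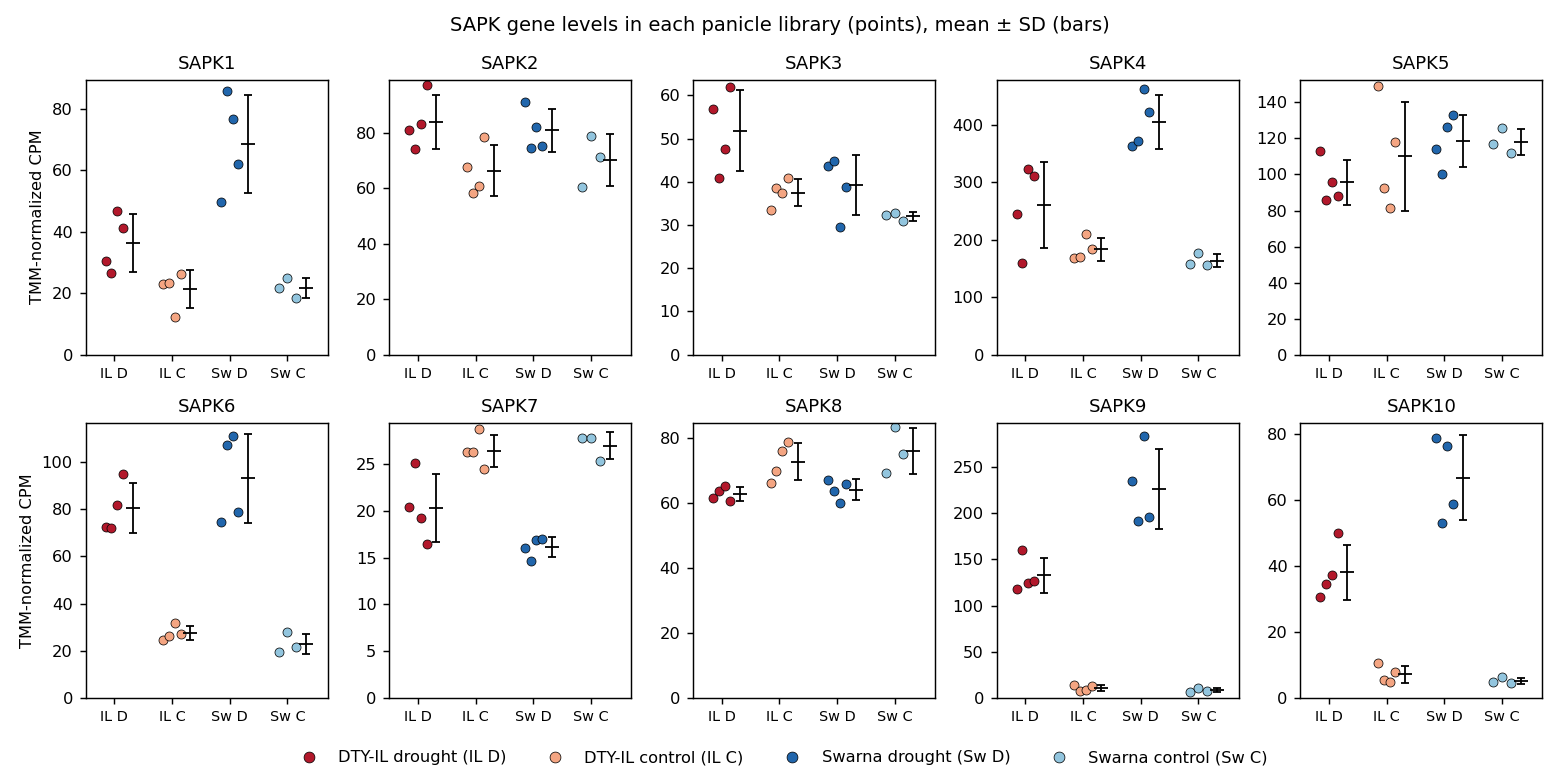
TMM-normalized CPM (vertical axes, each starting at 0) of the 10 SAPK genes in each of the 15 panicle libraries, by group along the horizontal axes; points are libraries and bars are means ± SD. SAPK9 sits at 118 to 160 CPM in DTY-IL drought and 191 to 284 in Swarna drought, against at most 13.4 in any control library, whereas the groups of SAPK5 overlap throughout.

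**Figure D2:**
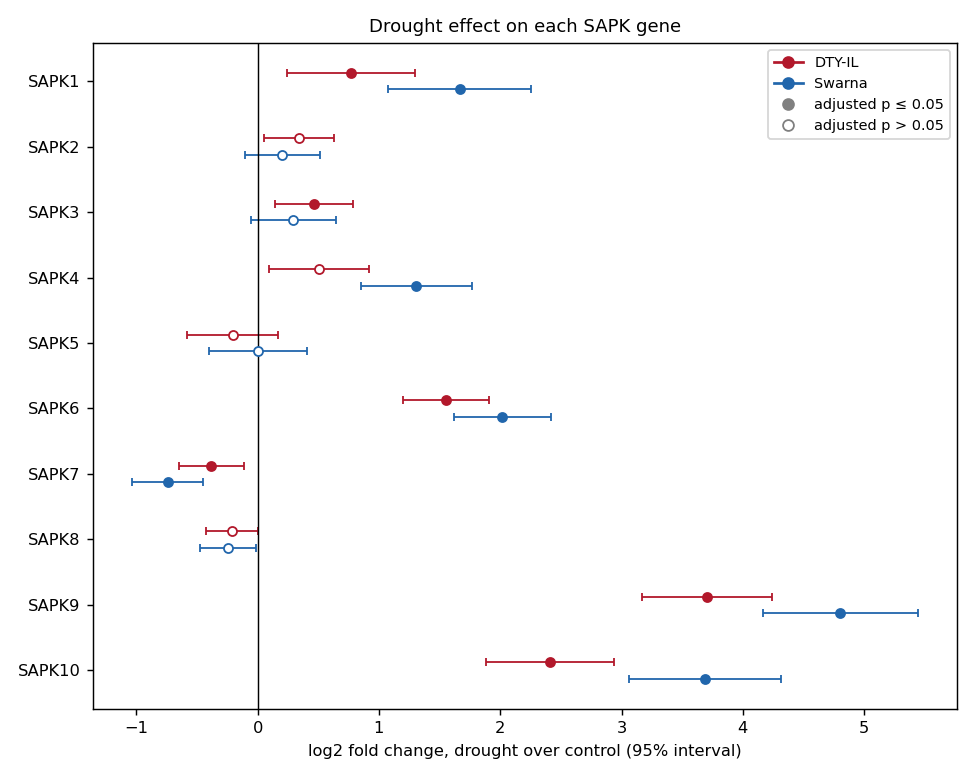
Log2 fold changes of RDS over control (horizontal axis) for each SAPK gene in DTY-IL and in Swarna, with 95% intervals; filled points have an edgeR adjusted p of at most 0.05. SAPK9 has the highest values, 3.71 in DTY-IL and 4.80 in Swarna, and SAPK7 is the only gene with a filled point below 0.

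Subclass III held the widest range of responses. SAPK9, which in rice has been linked to drought tolerance, was the most strongly upregulated member of the family. In DTY-IL it had 118, 160, 125 and 127 CPM in the drought libraries, against 13.4, 6.94, 7.93 and 12.3 CPM in the control libraries. In Swarna it had 235, 191, 284 and 195 CPM under drought, against 6.81, 10.6 and 6.89 CPM in controls. Every drought library of either genotype thus lay far above every control library. The level was 13.1-fold higher under RDS in DTY-IL (log2 fold change 3.71, SE 0.25, edgeR adjusted p = 1.2e-06), with a 95% interval of 9.01- to 18.9-fold. In Swarna it was 27.9-fold higher (log2 fold change 4.80, SE 0.30, edgeR adjusted p = 4.01e-07), with an interval of 17.9- to 43.6-fold. Only 2.69% of all genes tested had a larger absolute change in DTY-IL, and 2.10% in Swarna.

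SAPK10, a kinase that can phosphorylate bZIP and WRKY factors in rice, followed the same pattern at lower read counts. DTY-IL drought libraries had 30.6, 34.4, 37.1 and 49.9 CPM, against 10.4, 5.43, 4.90 and 7.80 CPM in DTY-IL controls. Swarna drought libraries had 78.8, 52.9, 76.4 and 58.8 CPM, against 4.68, 6.205 and 4.60 CPM in Swarna controls. Drought and control libraries did not overlap in either genotype, nor did the drought libraries of DTY-IL and Swarna. SAPK10 was 5.32-fold higher under RDS in DTY-IL (95% interval 3.69- to 7.66-fold, edgeR adjusted p = 3.28e-05). It was 12.9-fold higher in Swarna (95% interval 8.35- to 19.9-fold, edgeR adjusted p = 1.61e-06).

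SAPK8, the third kinase of subclass III, did not follow them. Its level was 61.6, 63.7, 65.3 and 60.5 CPM in DTY-IL drought, against 66.3, 69.9, 76.0 and 78.7 CPM in DTY-IL control. In Swarna it was 67.2, 63.7, 59.9 and 65.7 CPM under drought, against 69.4, 83.5 and 75.2 CPM in controls. All drought libraries were slightly below all control libraries of their genotype, as was the case, in 1 direction or the other, for 29.3% of all genes in DTY-IL and 52.2% in Swarna. The log2 fold changes of -0.21 in DTY-IL (edgeR adjusted p = 0.112) and -0.25 in Swarna (edgeR adjusted p = 0.0763) did not pass, and their 95% intervals reached no lower than -0.43 and -0.47. With DESeq2 the fall of SAPK8 passed in both genotypes (DESeq2 adjusted p = 0.0352 in DTY-IL and 0.0279 in Swarna). By edgeR it passed in Swarna with the filterByExpr filter and without DTY-IL drought replicate 1, DTY-IL drought replicate 2 or Swarna control replicate 4.

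The ratio of reads between 2 genes of the same library does not depend on the normalization between libraries. SAPK9 had 2.11 ± 0.28 reads per SAPK8 read in DTY-IL drought and 0.141 ± 0.049 in DTY-IL control, and 3.55 ± 0.83 in Swarna drought and 0.106 ± 0.019 in Swarna control (mean ± SD, n = 4, 4, 4 and 3). Every drought library thus had more SAPK9 than SAPK8 reads, and every control library had fewer. The SAPK10 to SAPK9 ratio was lower under RDS, at 0.291 ± 0.076 in DTY-IL drought against 0.703 ± 0.089 in DTY-IL control, and at 0.295 ± 0.030 in Swarna drought against 0.647 ± 0.055 in Swarna control. The ranges of this ratio did not overlap between treatments, and under RDS the mean was nearly the same in both genotypes. Ratios of reads are not scaled for gene length, so they compare libraries and not the molar amounts of the transcripts.

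In subclass I, whose kinases in rice respond to osmotic stress but are not strongly activated by ABA, SAPK6 rose in both genotypes. It had 72.6, 72.2, 81.8 and 94.8 CPM in DTY-IL drought, against 24.6, 26.1, 31.6 and 27.0 CPM in DTY-IL control. In Swarna it had 74.7, 107, 111 and 79.0 CPM under drought, against 19.6, 27.8 and 21.6 CPM in controls. Drought libraries were at least 72.2 CPM and no control library was above 31.6 CPM. SAPK6 was 2.94-fold higher under RDS in DTY-IL (95% interval 2.30- to 3.76-fold, edgeR adjusted p = 4.32e-05). It was 4.05-fold higher in Swarna (95% interval 3.07- to 5.35-fold, edgeR adjusted p = 4.69e-06).

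SAPK4, which has been linked to salt tolerance in rice, had the most reads of the family in every library but DTY-IL drought replicate 2, where SAPK9 had slightly more. In Swarna it had 363, 372, 463 and 422 CPM under drought, against 158, 177 and 156 CPM in controls. In DTY-IL it had 246, 160, 323 and 311 CPM under drought, against 168, 169, 210 and 185 CPM in controls. The 4 Swarna drought libraries were above every other library, whereas DTY-IL drought replicate 2 lay below all DTY-IL controls. SAPK4 was 2.48-fold higher under RDS in Swarna (log2 fold change 1.31, edgeR adjusted p = 0.000274). In DTY-IL the log2 fold change was 0.51 (edgeR adjusted p = 0.0561), which did not pass. Without DTY-IL drought replicate 2 it was 0.64 and passed (edgeR adjusted p = 0.00722), which made 7 members passing in DTY-IL in place of 6. SAPK4 also passed in DTY-IL without DTY-IL control replicate 3 or Swarna drought replicate 2.

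SAPK7 was the only member that passed as lower by edgeR's test in the fit of 15 libraries. It had 20.4, 25.2, 19.2 and 16.4 CPM in DTY-IL drought, against 26.3, 26.3, 28.7 and 24.5 CPM in DTY-IL control. Swarna drought libraries had 16.03, 14.7, 16.9 and 17.0 CPM, against 27.8, 27.8 and 25.4 CPM in Swarna control. The groups were apart in Swarna and overlapped in DTY-IL through replicate 2. The log2 fold change was -0.38 in DTY-IL (edgeR adjusted p = 0.0327) and -0.74 in Swarna (edgeR adjusted p = 0.000606), so that SAPK7 passed in both genotypes without being a DEG. Without DTY-IL drought replicate 2 the DTY-IL value was -0.54 (edgeR adjusted p = 0.00473). SAPK6 had 4.11 ± 1.24 reads per SAPK7 read in DTY-IL drought against 1.03 ± 0.08 in DTY-IL control, and 5.81 ± 1.36 in Swarna drought against 0.851 ± 0.147 in Swarna control. SAPK5 completed the subclass with 86.0 to 113 CPM in DTY-IL drought, 81.2 to 149 in DTY-IL control, 100.4 to 133 in Swarna drought and 112 to 126 in Swarna control. Its groups overlapped, and its log2 fold changes of -0.20 in DTY-IL (95% interval -0.58 to 0.17) and 0.01 in Swarna (95% interval -0.40 to 0.41) did not pass.

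In subclass II, SAPK1 rose in both genotypes. It had 30.3, 26.5, 46.8 and 41.2 CPM in DTY-IL drought, against 23.1, 23.3, 12.3 and 26.3 CPM in DTY-IL control. Swarna drought libraries had 49.6, 85.7, 76.5 and 62.1 CPM, against 21.6, 24.8 and 18.3 CPM in Swarna control. The lowest DTY-IL drought library was within 1 CPM of the highest DTY-IL control library, while the Swarna groups were far apart. SAPK1 was 1.70-fold higher under RDS in DTY-IL (95% interval 1.18- to 2.45-fold, edgeR adjusted p = 0.0279) and 3.17-fold higher in Swarna (95% interval 2.10- to 4.78-fold, edgeR adjusted p = 0.000306).

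SAPK3 rose only slightly, and passed in DTY-IL alone. It had 56.9, 40.9, 47.6 and 62.0 CPM in DTY-IL drought, against 33.4, 38.5, 37.4 and 40.8 CPM in DTY-IL control (log2 fold change 0.47, edgeR adjusted p = 0.0292). In Swarna it had 43.6, 44.9, 29.6 and 38.9 CPM under drought, against 32.2, 32.9 and 30.9 CPM in controls (log2 fold change 0.29, edgeR adjusted p = 0.159). The change was not shown to differ between the genotypes, since the difference of the log2 fold changes was 0.17 (95% interval -0.30 to 0.65, edgeR adjusted p = 0.799). SAPK2, a kinase with a role in ABA responses of rice seedlings, had 73.95 to 97.1 CPM in DTY-IL drought, 58.1 to 78.5 in DTY-IL control, 74.6 to 91.1 in Swarna drought and 60.3 to 78.6 in Swarna control. Its log2 fold changes of 0.34 in DTY-IL (edgeR adjusted p = 0.0661) and 0.21 in Swarna (edgeR adjusted p = 0.271) did not pass.

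The calls of SAPK6, SAPK9 and SAPK10 held in both genotypes when each of the 15 libraries was left out in turn, while the calls of SAPK1, SAPK3 and SAPK7 in DTY-IL did not. SAPK1 was lost there without DTY-IL control replicate 3 or without DTY-IL drought replicate 3 or 4, and SAPK3 without DTY-IL drought replicate 1 or 4 or Swarna control replicate 4. SAPK7 was lost without any of 6 libraries, which were DTY-IL control replicates 1, 2 and 3, DTY-IL drought replicates 3 and 4 and Swarna drought replicate 2. Of the 6 members passing in DTY-IL, 3 were left when DTY-IL drought replicate 4 was removed and 4 when replicate 3 was. Of all genes, 9299 of 33515 and 7930 of 33503 passed in these fits, against 11120 of 33698 in 15 libraries. SAPK1, SAPK3 and SAPK7 also lost their calls in DTY-IL when all 16 libraries were used or the DTY-IL groups were fitted alone, and SAPK7 lost its call in Swarna with all 16 libraries. In DTY-IL the replicate block, which adds the column number to the fit, also ended the calls of SAPK1 and SAPK7, and dropping the filter on low counts ended that of SAPK3.

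The SAPK reads as a whole increased under RDS, and their make-up shifted. The summed level of the 10 genes was 862 ± 93.8 CPM in DTY-IL drought and 562 ± 36.4 in DTY-IL control, which is 1.53 times as much, and 1179 ± 99.8 CPM in Swarna drought and 545 ± 43.4 in Swarna control, 2.16 times as much (mean ± SD, n = 4, 4, 4 and 3). SAPK9 made up 40.9% of the difference between DTY-IL drought and control, SAPK4 25.7%, SAPK6 17.7% and SAPK10 10.3%. In Swarna SAPK4 made up 38.1% of it, SAPK9 34.5%, SAPK6 11.1% and SAPK10 9.71%. SAPK9 and SAPK4 were thus the main sources of added reads in both genotypes.

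Subclass III accounted for 27.4 ± 4.9% of the SAPK reads in DTY-IL drought against 16.01 ± 0.43% in DTY-IL control, and for 30.3 ± 2.9% in Swarna drought against 16.4 ± 0.6% in Swarna control. Without DTY-IL drought replicate 2 its mean share in DTY-IL drought was 24.99%. Within it, SAPK9 took the larger part under RDS and SAPK8 in controls. SAPK9 supplied 15.7 ± 4.0% of the SAPK reads in DTY-IL drought and 1.79 ± 0.47% in DTY-IL control, and 19.1 ± 2.3% in Swarna drought and 1.47 ± 0.27% in Swarna control. SAPK8 supplied 7.36 ± 0.92% in DTY-IL drought and 13.0 ± 1.1% in DTY-IL control, and 5.48 ± 0.65% in Swarna drought and 14.0 ± 0.5% in Swarna control. The share of subclass I was lower under RDS, at 52.7 ± 4.4% in DTY-IL drought against 61.8 ± 2.2% in DTY-IL control and at 53.7 ± 2.7% in Swarna drought against 60.9 ± 1.2% in Swarna control, although SAPK4 and SAPK6 belong to it. Subclass II held 19.9 ± 1.0% in DTY-IL drought and 22.2 ± 1.9% in DTY-IL control, and 16.1 ± 1.8% in Swarna drought and 22.7 ± 0.5% in Swarna control. Shares were not tested and add up to the whole, so that a larger share of 1 gene lowers the others.

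**Figure D3:**
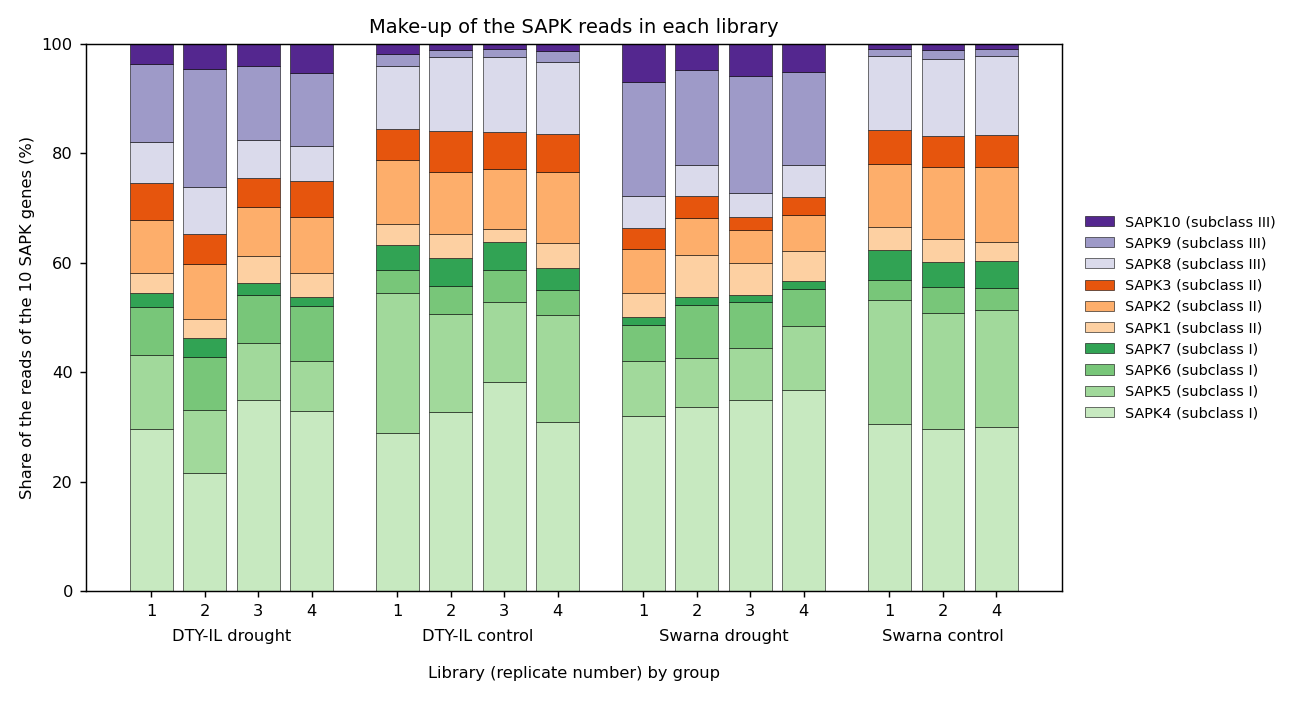
Share of the reads of the 10 SAPK genes (vertical axis, percent, not scaled for gene length) that each gene supplied in each library, grouped by genotype and treatment along the horizontal axis. Subclass III (purple) covers 24.6% to 34.8% in DTY-IL drought and 27.8% to 33.6% in Swarna drought, against 15.5% to 16.9% in the control libraries of both genotypes.

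Between the genotypes, well-watered panicles did not differ detectably in any SAPK gene. No member passed in DTY-IL over Swarna under control by edgeR's quasi-likelihood test, beside 1.20% of all genes. None had an unadjusted p under 0.05, beside 3695 of 33698 genes tested, and none passed by DESeq2, beside 920. The log2 fold changes ranged from -0.10 for SAPK5 to 0.47 for SAPK10. The 95% intervals were widest for SAPK1 (-0.59 to 0.54), SAPK10 (-0.09 to 1.03) and SAPK9 (-0.21 to 0.86), so that smaller differences in these genes were not detectable with these libraries.

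Under RDS, SAPK1 was the only member that passed between the genotypes, beside 2.16% of all genes that were lower and 2.84% that were higher in DTY-IL drought. Its level was 36.2 ± 9.4 CPM in DTY-IL drought and 68.5 ± 15.9 CPM in Swarna drought (mean ± SD, n = 4 each), and all DTY-IL libraries lay below all Swarna libraries. The log2 fold change of DTY-IL over Swarna was -0.92 (95% interval -1.44 to -0.39, edgeR adjusted p = 0.0452). This call was lost without any 1 of 11 of the 15 libraries, which were DTY-IL control replicates 1 and 2, DTY-IL drought replicates 1, 2 and 4, Swarna drought replicates 2, 3 and 4 and all 3 Swarna controls. Its log2 fold change stayed between -1.07 and -0.77 as libraries were left out. With the column number as a block over all 15 libraries it was -0.91 and did not pass (edgeR adjusted p = 0.0924), so that no member passed. This block also ties the control libraries by number, so it does not give the result of pairing the drought libraries alone. The edgeR adjusted p of 0.0452 came from a fit without pairing, and no fit paired the drought libraries alone.

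SAPK4, SAPK9 and SAPK10 also had every DTY-IL drought library below every Swarna drought library, without passing. SAPK9 averaged 133 ± 18.9 CPM in DTY-IL drought and 227 ± 43.1 CPM in Swarna drought (log2 fold change -0.77, edgeR adjusted p = 0.0627). SAPK10 averaged 38.0 ± 8.4 CPM in DTY-IL drought and 66.7 ± 12.8 CPM in Swarna drought (log2 fold change -0.81, edgeR adjusted p = 0.0595). SAPK4 averaged 259.9 ± 74.9 CPM in DTY-IL drought and 405 ± 46.6 CPM in Swarna drought (log2 fold change -0.64, edgeR adjusted p = 0.0692). Together with SAPK1 these were 4 of 10 members whose drought groups did not overlap, beside 13.3% of all genes. With DESeq2 all 4 passed, beside 3548 of 33698 genes tested against 1684 by edgeR. Without DTY-IL drought replicate 2 none passed by edgeR. Without DTY-IL control replicate 3, SAPK9 and SAPK10 passed by edgeR as well as SAPK1, beside 2421 of 33395 genes. SAPK10 also passed without DTY-IL control replicate 1 or DTY-IL drought replicate 4.

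SAPK3 and SAPK7 pointed the other way, with log2 fold changes of 0.40 (edgeR adjusted p = 0.139) and 0.33 (edgeR adjusted p = 0.146) that did not pass. SAPK2 (0.05), SAPK5 (-0.31), SAPK6 (-0.21) and SAPK8 (-0.03) did not pass and their groups overlapped. The 95% intervals of SAPK2 (-0.24 to 0.34) and SAPK8 (-0.24 to 0.18) were the narrowest around 0.

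Whether the response to RDS itself differed between the genotypes was tested as the interaction, the log2 fold change in DTY-IL minus that in Swarna. No member passed by edgeR's quasi-likelihood test, beside 0.0594% of all genes, although 4 members had an unadjusted p under 0.05, as did 12.3% of all genes. These were SAPK10 (-1.28, 95% interval -2.03 to -0.53, edgeR adjusted p = 0.193), SAPK9 (-1.10, interval -1.82 to -0.38, edgeR adjusted p = 0.227), SAPK4 (-0.80, interval -1.41 to -0.20, edgeR adjusted p = 0.283) and SAPK1 (-0.90, interval -1.67 to -0.12, edgeR adjusted p = 0.34). All were on the side of a larger rise in Swarna. In DESeq2 SAPK10 alone passed, beside 795 of 33698 genes tested, against 20 by edgeR. The interaction was negative for 6 members and positive for 4, with a median of -0.34 against -0.03 over all genes. This contrast uses the same libraries as the comparison of the genotypes under RDS, so the values of the pair are not independent of each other.

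**Figure D4:**
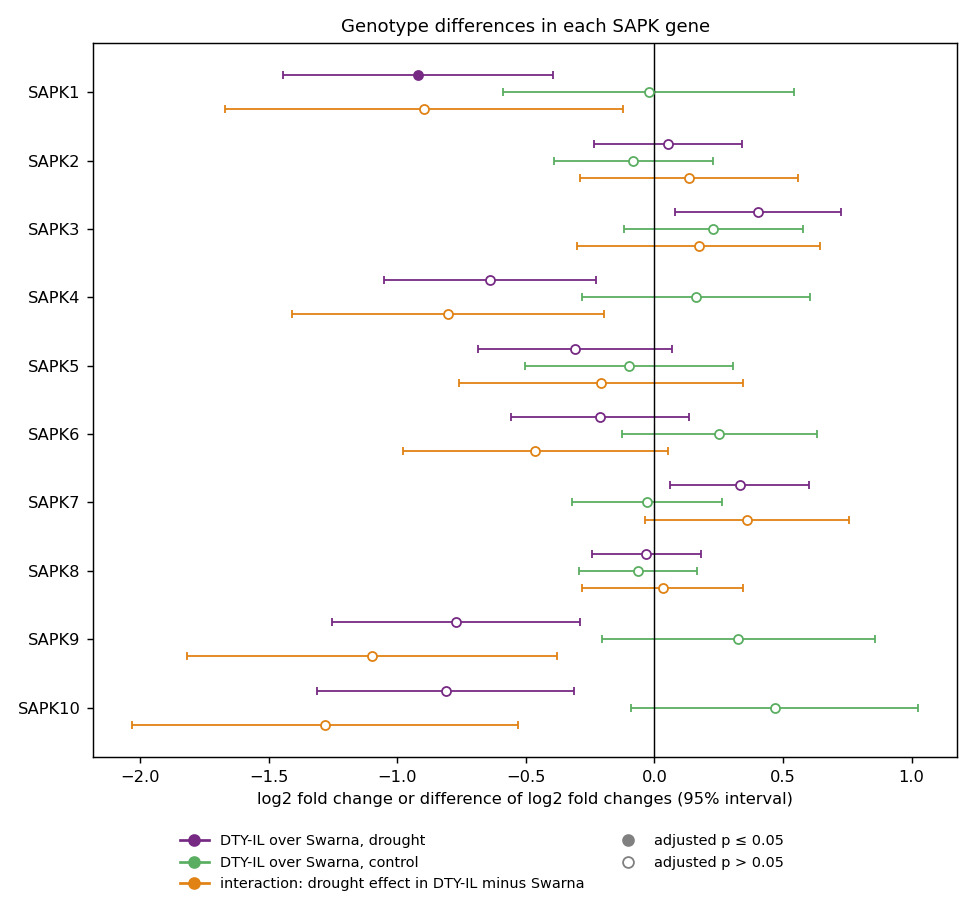
Log2 fold changes of DTY-IL over Swarna under RDS and under control, and the interaction (drought log2 fold change in DTY-IL minus that in Swarna), for each SAPK gene on the horizontal axis with 95% intervals; filled points have an edgeR adjusted p of at most 0.05. SAPK1 under RDS, at -0.92, is the only filled point, and the RDS and interaction intervals of SAPK1, SAPK4, SAPK9 and SAPK10 lie below 0.

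How closely the members moved together was described by Pearson correlations of log2(CPM + 1) over the 15 libraries, which fall into drought and control sets and share their depth scaling. SAPK9 and SAPK10 were the most alike pair (r = 0.99), and after the group means were subtracted r was 0.75. SAPK6 and SAPK9 were nearly as alike over all libraries (r = 0.97) but not within groups (r = 0.12). SAPK1 and SAPK7 ran opposite to each other (r = -0.92 over all libraries, -0.57 within groups). The pairs therefore differed in whether they also varied together among libraries of the same group.

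Among 20921 other genes with a mean of at least 50 counts, the 1 most alike to SAPK9 was LOC_Os09g33550 (r = 0.99), with 38.0 ± 4.3 CPM in DTY-IL drought against 1.48 ± 0.10 in DTY-IL control and 75.9 ± 18.6 in Swarna drought against 1.33 ± 0.06 in Swarna control. The gene most alike to SAPK8 was LOC_Os01g12800 (r = 0.92), with 9.80 ± 0.94 CPM in DTY-IL drought against 13.7 ± 1.8 in DTY-IL control and 9.62 ± 0.49 in Swarna drought against 14.1 ± 2.6 in Swarna control. An r above 0.9 was reached by 1533 genes with SAPK9, 1412 with SAPK10 and 1473 with SAPK6, but by 1 with SAPK8 and 0 with SAPK2, SAPK3 and SAPK5. Such counts depend on how far a member differed between treatments. They therefore do not show whether the profile of a member that changed little is shared by few genes.

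The steps before the kinases were read from the ABA receptors and the PP2Cs. Of 12 receptor loci 9 were tested, of which 1 rose and 4 fell in DTY-IL and 1 rose and 5 fell in Swarna (median log2 fold change -0.35 and -1.12), beside 33.0% and 44.3% of all genes that passed in either direction. Some that fell in DTY-IL averaged below 1 CPM over the libraries. The summed receptor level was 91.1 to 105 CPM in DTY-IL drought and 89.3 to 123 in DTY-IL control. In Swarna it was 100.2 to 125 CPM under drought and 103.7 to 128 in controls, so that treatments overlapped in both genotypes. The 2 receptor genes with the most reads went opposite ways. LOC_Os05g12260 had 59.8 ± 7.3 CPM in DTY-IL drought against 34.3 ± 9.1 in DTY-IL control, and 75.5 ± 11.5 in Swarna drought against 34.9 ± 4.5 in Swarna control, and passed in both (edgeR adjusted p = 0.00499 and 0.000567). LOC_Os10g42280 had 13.5 ± 1.4 CPM in DTY-IL drought against 31.4 ± 5.3 in DTY-IL control, and 12.6 ± 1.7 in Swarna drought against 38.8 ± 6.9 in Swarna control (edgeR adjusted p = 0.000138 and 9.01e-06).

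The PP2Cs are direct inhibitors of the ABA-activated kinases. Of 9 tested clade A genes, 7 rose in DTY-IL and 8 in Swarna and none fell, with medians of 1.75 and 2.68, beside 5392 of 33698 genes tested that rose in DTY-IL and 7271 in Swarna. PP2C30 had 208 ± 104 CPM in DTY-IL drought against 26.3 ± 0.9 in DTY-IL control, and 321 ± 29.7 in Swarna drought against 21.7 ± 5.2 in Swarna control. PP2C09 had 238 ± 91.6 CPM in DTY-IL drought against 112 ± 14.5 in DTY-IL control, and 239.9 ± 19.8 in Swarna drought against 61.3 ± 13.9 in Swarna control. The large SD in DTY-IL drought came with replicate 2, in which PP2C30 was at 53.6 CPM and PP2C09 at 103 CPM, the lowest values of that group, while SAPK9 had its highest there.

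Downstream, 4 of 6 ABA-related bZIP genes rose in DTY-IL and 5 of 6 in Swarna, with medians of 1.004 and 1.051, beside the same 5392 and 7271 of all genes tested. bZIP23, a regulator of ABA-responsive genes under drought in rice, had 135 ± 59.6 CPM in DTY-IL drought against 41.4 ± 7.0 in DTY-IL control, and 155 ± 16.6 in Swarna drought against 33.1 ± 2.3 in Swarna control. bZIP12 had 92.9 ± 46.4 CPM in DTY-IL drought against 28.7 ± 3.3 in DTY-IL control, and 178 ± 30.2 in Swarna drought against 17.1 ± 1.1 in Swarna control. The protective genes that mark ABA responses, LEA3 and the RAB16 dehydrins, rose in 5 of 5 cases in both genotypes, with medians of 6.23 and 9.45. RAB16A had 545 ± 438 CPM in DTY-IL drought against 5.04 ± 1.29 in DTY-IL control, and 1916 ± 808 in Swarna drought against 1.44 ± 0.29 in Swarna control. RAB16B had 209.8 ± 158.5 CPM in DTY-IL drought against 1.28 ± 0.19 in DTY-IL control, and 669 ± 217 in Swarna drought against 0.950 ± 0.392 in Swarna control. DTY-IL drought replicate 2 was low here too. Its summed bZIP level was 166 CPM, against 372 to 479 in the other DTY-IL drought libraries and 122 to 168 in DTY-IL controls. Its summed level of LEA3 and the RAB16 genes was 183 CPM, against 661 to 1948 in the other DTY-IL drought libraries and 14.2 to 20.9 in DTY-IL controls. The RAB16 genes are close relatives and reads could be shared between them.

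SLAC1, the guard cell anion channel that SnRK2 kinases open in Arabidopsis, fell in both genotypes. It had 2.26 ± 0.41 CPM in DTY-IL drought against 7.51 ± 1.93 in DTY-IL control, and 3.81 ± 1.94 in Swarna drought against 9.36 ± 1.46 in Swarna control (edgeR adjusted p = 0.0022 and 0.00867). VP1, an ABA regulator of seeds, stayed below 1 CPM in every library, although it passed in DTY-IL (log2 fold change 2.16, edgeR adjusted p = 0.0324). The SnRK1 kinases, relatives of the SAPK proteins with a role in energy sensing, hardly moved. The paper also ties SnRK1 to ABA signalling, through its inhibition by a PP2C. None of 3 passed in DTY-IL by edgeR, with 0 at an unadjusted p under 0.05, and 1 of 3 rose in Swarna (OSK24, log2 fold change 0.43), with medians of 0.10 and 0.17. Of all 33698 genes tested, 15000 had an unadjusted p under 0.05 in DTY-IL and 7271 rose in Swarna. SnRK1A had 132 ± 19.96 CPM in DTY-IL drought against 123 ± 21.5 in DTY-IL control, and 135 ± 18.4 in Swarna drought against 122 ± 10.6 in Swarna control. OSK35 had 122 ± 8.1 CPM in DTY-IL drought against 144 ± 19.3 in DTY-IL control, and 118 ± 13.9 in Swarna drought against 104 ± 7.3 in Swarna control.

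**Figure D5:**
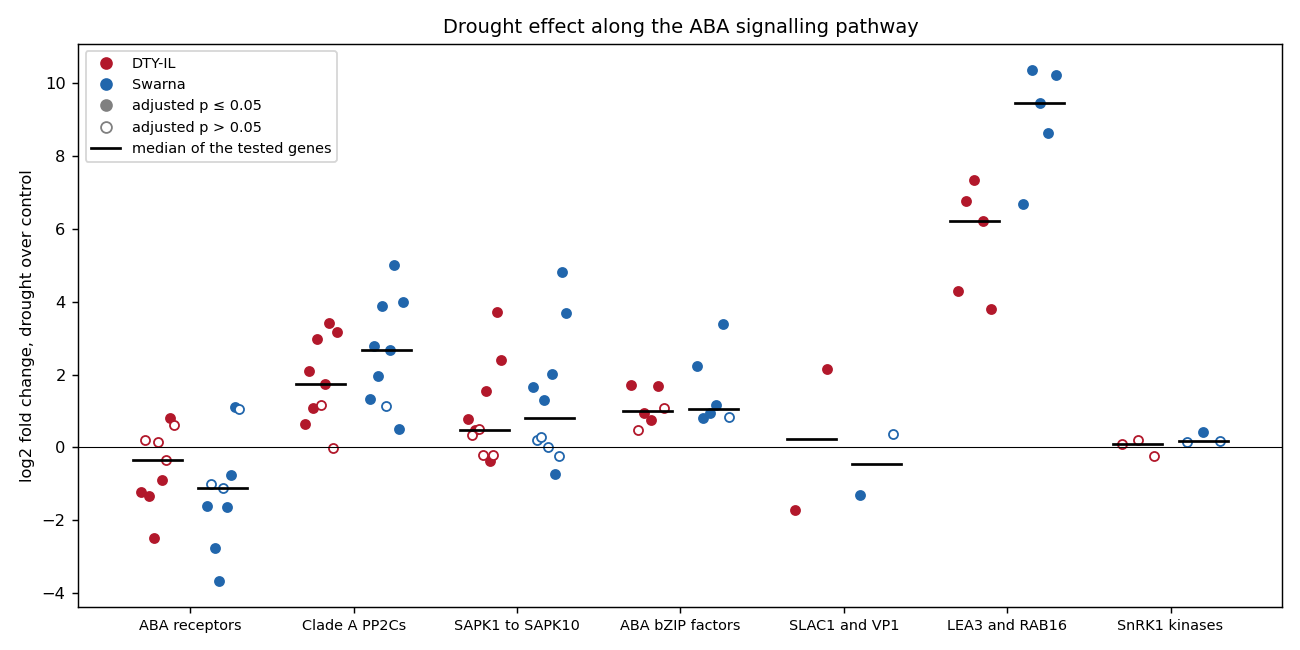
Log2 fold changes of RDS over control (vertical axis) for the tested genes of each step of the ABA pathway and for the SAPK and SnRK1 kinases (horizontal axis), in DTY-IL and Swarna; filled points have an edgeR adjusted p of at most 0.05 and lines are medians. The PP2C medians are 1.75 in DTY-IL and 2.68 in Swarna, the SAPK medians 0.49 and 0.80, and the SnRK1 medians 0.10 and 0.17.

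The pathway lists between the genotypes under RDS gave few calls. None of 9 PP2C and 6 bZIP genes passed by edgeR's quasi-likelihood test. At an unadjusted p under 0.05 there were 5 and 2 of them, beside 7298 of all 33698 genes tested. In DTY-IL drought 1 of 9 receptors was higher and 2 of 5 LEA3 and RAB16 genes were lower. Of all genes, 2.84% were higher and 2.16% lower. The 2 were LEA3 (log2 fold change -1.80, edgeR adjusted p = 0.0316) and RAB16D (-3.50, edgeR adjusted p = 0.0319), and the receptor was LOC_Os03g18600 (0.73, edgeR adjusted p = 0.0402). Calls of the pathway genes were examined only in the fit of 15 libraries, which includes DTY-IL drought replicate 2. The median over the PP2C genes was -0.61 and that over the 10 SAPK genes -0.26, against -0.00 over all genes tested.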

How the data were processed

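The panicle RNA-seq libraries of both genotypes and treatments were analysed as estimated counts per gene. The authors trimmed reads with Trimmomatic, estimated transcript counts with Salmon 0.7.2 against the RGAP 7 transcriptome on IRGSP 1.0, with bias corrections, and summed them per gene. These estimated counts were deposited as whole numbers without normalization. The authors' DESeq2 tables, which hold their fold changes and p-values, were not used, and the flag-leaf data were left aside. The numbers 1 to 4 of the columns are not those at the end of the sample titles, and the labels do not say what either stands for. A column is therefore known by its group only, and replicate numbers are those of the columns. The paper describes a randomized complete block design, but the block of a column is not given.

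Genes with at least 10 counts over 15 libraries were fitted in R 4.3.3 with edgeR 4.0.16 (TMM factors, quasi-likelihood test, all 4 groups in 1 fit, contrasts for drought in each genotype, genotypes in each treatment and their interaction). The interaction was the difference of the drought effects. Benjamini-Hochberg adjustment was applied to the 33698 p-values of each contrast. CPM values are TMM-normalized. Alternatives were DESeq2 1.42.0, RLE factors, the filterByExpr filter or none, all 16 libraries, fits of only those groups a contrast compares, a null of at most 1 on the log2 scale in either direction, leaving out each library, and the column number as a block. All 4 same-numbered pairs of DTY-IL and Swarna drought libraries had a correlation of deviations from the group means above 0.1 (0.27 to 0.42). The numbers may therefore pair these libraries, and those of no other 2 groups, but the labels do not say so. Over all groups 5 of 15 libraries matched their own number best. The main fit had no pairing term and the block was fitted over all 15 libraries, so no fit paired the drought libraries alone. Figures were drawn with matplotlib 3.10.9.

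All 10 members are named, for each pathway list the 2 genes with the highest mean CPM, and for SAPK8 and SAPK9 of the 10 members the most correlated gene. Further pathway genes named (OSK24, LEA3, RAB16D and LOC_Os03g18600) were chosen after their values were seen. SAPK names of the loci were checked only by chromosome in the RefSeq gene table, which gave 1 entry for each of the 10. This check cannot tell apart the 3 members on chromosome 3 or the 2 on chromosome 4. The members and lists were chosen with earlier results of these data known. Gene lengths were not used, so comparisons between genes, such as shares and ratios, are of reads and not of transcript amounts. Reads shared between similar SAPK genes were not examined.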

Additional observations from a re-analysis of the deposited data

Results flagged for a closer look

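The Swarna control library that the study set aside, replicate 3, gave a signal above the other Swarna controls for 3 SAPK genes in values that enter no comparison of the report. On CPM normalized over all 16 libraries it had 60.6 CPM for SAPK1 (17.6 to 24.3 in the other 3), 214 CPM for SAPK5 (107 to 123) and 16.03 CPM for SAPK10 (4.41 to 6.06). It lay below the others for SAPK3, SAPK4, SAPK7 and SAPK8, with 4.28 CPM of SAPK7 against 24.3 to 27.2 CPM, and within their range for SAPK2, SAPK6 and SAPK9. No library stood apart within its group by Dixon's criterion in the 30 groups of 4 libraries examined over the 10 genes, where chance would flag about 1 in 20.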

How the results depend on the processing

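The drought count in DTY-IL was 6, but 9 with DESeq2, which added SAPK2, SAPK4 and SAPK8, 3 with all 16 libraries, 3 with only the groups compared in the fit and 3 in the test against a log2 fold change of 1, each time without SAPK1, SAPK3 and SAPK7, and 3 to 7 as single libraries were left out. Of all genes, 11120 of 33698 passed there by edgeR in 15 libraries, 12593 with DESeq2 and 4032 of 33909 with all 16 libraries. With only the groups compared 8238 of 31674 passed, and 1510 of 33698 in the test against 1. For the genotypes under RDS the count was 1, but 4 with DESeq2, 0 without the filter, 0 with all 16 libraries, 0 in the test against a log2 fold change of 1, and 0 to 3 as libraries were left out. With only the groups compared it was 1 as well, with SAPK9 in place of SAPK1. Between genotypes under RDS 1684 of all 33698 genes passed by edgeR in 15 libraries and 3548 with DESeq2. Without the filter 1447 of 43020 passed, with all 16 libraries 479 of 33909, and 305 of 33698 in the test against 1. The interaction count was 0, but 1 with DESeq2, beside 20 and 795 of 33698 genes. The Swarna drought count stayed between 4 and 7, and the count for the genotypes under control at 0, in every alternative. The causes of these changes were not tested. Some log2 fold changes changed sign. SAPK5 under drought in Swarna was 0.01 but -0.00136 with filterByExpr, -0.081 without the filter and -0.30 with all 16 libraries. With all 16 libraries the control genotypes gave 0.31 for SAPK7, against -0.03 in 15, and -0.16 for SAPK10, against 0.47, and the interaction 0.072 for SAPK5 and -0.00576 for SAPK8. As libraries were left out, SAPK5 ranged from -0.34 to 0.024 under drought in DTY-IL and from -0.13 to 0.12 in Swarna. Between genotypes under control the ranges were -0.16 to 0.17 for SAPK1, -0.18 to 0.00805 for SAPK2, -0.27 to 0.021 for SAPK5, -0.11 to 0.00568 for SAPK7 and -0.13 to 0.00825 for SAPK8, with SAPK2 at -0.027 to 0.12 under RDS and the interaction of SAPK8 at -0.040 to 0.099. Same-numbered libraries of 2 groups had a correlation of deviations above 0.1 in 9 of 21 pairs (-0.67 to 0.42), 4 of them between the drought groups, the only 2 groups where all pairs did, and 5 of 15 libraries matched their own number best. With the replicate block the counts were 4 for drought in DTY-IL, 6 in Swarna and 0 for the genotypes under RDS, and of all member calls only those of SAPK1 and SAPK7 in DTY-IL and SAPK1 between genotypes under RDS changed. Scaling by gene length was not run, since no lengths of the annotation used were at hand.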
